A study of Mus musculus with 12 samples.

Results

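Pde10a, the gene named as the target of the knockout, was followed through 12 mouse heart libraries. It is 1 of the 55453 gene symbols counted in every library and was taken by its symbol. It was also 1 of the 14757 genes that passed the filter on low counts. RNA sequencing had been done on whole hearts of C57BL/6J mice in 4 groups of 3. PDE10A knockout (KO) mice were given doxorubicin (DOX, mice 18, 19 and 20) or vehicle (mice veh_3393, veh_3394 and veh_3395), and PDE10A wild-type (WT) mice were given DOX (mice 21, 22 and 24) or vehicle (mice 1, 2 and 3). DOX, an anthracycline used against cancer that injures the heart, came as a bolus dose (15 mg/kg), and hearts were studied after 7 days. The labels' protocols also describe TP-10, a PDE10A inhibitor, but it stands on none of these 12 libraries. Which exons the knockout allele removes, the way it was made and the ages of the mice are not stated in the labels. Library totals lay between 23846398 and 32921876 counts. The KO vehicle mice carry numbers far from those of the other groups. Separate breeding or handling cannot be told apart from genotype under vehicle, or from DOX in KO hearts. The averaged genotype difference and the interaction draw on the same KO vehicle mice and share this limit.

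PDE10A is a phosphodiesterase that hydrolyses both cyclic AMP and cyclic GMP, and so ends the signals that adenylyl and guanylyl cyclases start. Its transcript is best known from the medium spiny neurons of the striatum, where it is abundant, while the healthy heart holds little of it. Within the myocyte, cyclic AMP drives contraction through protein kinase A, and other phosphodiesterase families (PDE3 and PDE4 in the mouse) are the better known brakes on that pathway.

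Pde10a lies on the plus strand at chr17:8525372-8986648 of GRCm38 and spans 461277 bases, of which 12849 (2.79%) are annotated as exon in GENCODE M21. That annotation lists 14 transcripts, 8 of them protein coding, with 13 different start positions. The 6 transcripts with over 2000 coding bases begin their coding sequence at 5 different places and share 18 coding segments, 2042 bases in all. A count per gene symbol pools all of these transcripts, so a change in which exon is used, or the loss of a few exons, cannot be seen in it. The 60 bases that open each long coding sequence are given here because they show which amino-terminal ends the pooled count could stem from, with the start codon in capitals.
Pde10a-208: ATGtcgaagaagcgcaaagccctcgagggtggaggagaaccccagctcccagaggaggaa
Pde10a-202: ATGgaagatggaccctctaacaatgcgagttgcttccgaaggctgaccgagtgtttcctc
Pde10a-206: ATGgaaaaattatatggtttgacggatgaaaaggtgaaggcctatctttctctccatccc
Pde10a-211: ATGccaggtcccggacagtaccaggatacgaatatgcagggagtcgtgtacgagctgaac
Pde10a-204: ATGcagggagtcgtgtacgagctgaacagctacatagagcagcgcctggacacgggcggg
The start codons lie 1.65, 277, 325, 399 and 404 kb after the first annotated start of the gene, in the order printed. Pde10a-201 shares the start codon of Pde10a-204, and the sequence of Pde10a-211 runs into that of Pde10a-204 at its base 34.

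**Figure D1:**
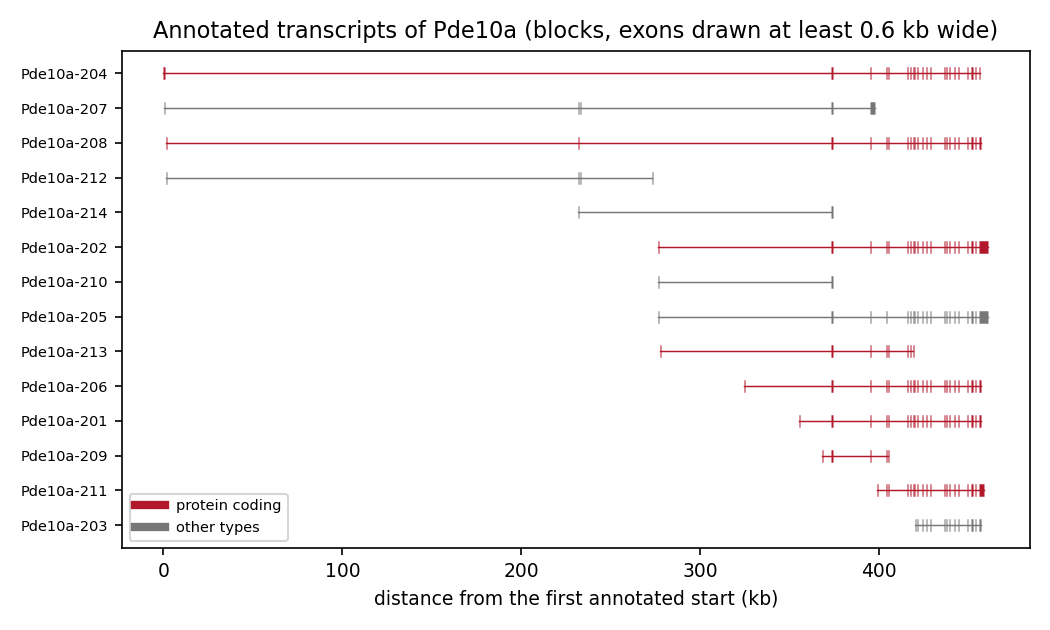
Annotated transcripts of Pde10a, 1 per line, against the distance in kb from the first annotated start; blocks are exons and red marks protein coding transcripts. The 14 transcripts have 13 different start positions and most share the exons at the right.

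RefSeq (GRCm38.p6) gives promoter windows, from 250 bases before a start to 50 after it, around 2 transcription starts of Pde10a. They are printed because transcripts from both add to the count, with matches to the searched motifs in capitals.
Window at chr17:8801495-8801794, plus strand: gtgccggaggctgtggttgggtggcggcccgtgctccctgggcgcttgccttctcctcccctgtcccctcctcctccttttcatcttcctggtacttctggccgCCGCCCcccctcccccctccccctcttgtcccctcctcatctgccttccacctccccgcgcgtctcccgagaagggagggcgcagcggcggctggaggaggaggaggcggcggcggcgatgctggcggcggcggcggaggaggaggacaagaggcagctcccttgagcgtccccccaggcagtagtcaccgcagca
Window at chr17:8849735-8850034, plus strand: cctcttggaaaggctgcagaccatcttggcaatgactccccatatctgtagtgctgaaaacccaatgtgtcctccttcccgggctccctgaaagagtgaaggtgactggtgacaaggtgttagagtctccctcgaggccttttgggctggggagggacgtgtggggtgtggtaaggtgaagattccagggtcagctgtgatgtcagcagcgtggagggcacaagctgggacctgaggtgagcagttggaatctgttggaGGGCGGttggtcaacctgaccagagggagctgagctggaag
The motifs were searched on both strands. The first window had 71.3% G and C and 23 CG dinucleotides, and the second 56.7% and 5, against a median of 52.7% G and C over 32851 windows of the same length. Each window held 1 match to the GC box GGGCGG, which 35.7% of all windows hold. Neither held the cyclic AMP response element TGACGTCA (in 1.79% of all windows), its half-site TGACG, which the full element contains (20.8%), or TATAAA (13.6%).

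Pde10a was higher in the hearts labelled KO than in those labelled WT, under both treatments. In KO DOX hearts it had 210, 232 and 236 counts in mice 18, 19 and 20. In KO vehicle hearts it had 245, 315 and 214 counts in mice veh_3393, veh_3394 and veh_3395. In WT DOX hearts there were 75, 57 and 62 counts in mice 21, 22 and 24, and in WT vehicle hearts 76, 29 and 47 counts in mice 1, 2 and 3. The lowest KO library, with 210 counts, thus lay well above the highest WT library, with 76. The whole-gene count of the targeted gene was thus higher, not lower, under the KO label. Such a count does not show which exons were transcribed. Every direction between genotypes below is one between the libraries labelled KO and the libraries labelled WT.

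In CPM, the count relative to the TMM-scaled size of its library, the KO DOX libraries stood at 8.27, 8.49 and 9.09 CPM and the KO vehicle libraries at 9.31, 11.9 and 9.13 CPM. The WT DOX libraries stood at 2.696, 2.08 and 1.79 CPM, and the WT vehicle libraries at 3.38, 1.00 and 1.86 CPM, in the order of mice given above. The coefficient of variation was 4.94% in KO with DOX and 15.2% in KO with vehicle, against 21.3% in WT with DOX and 57.9% in WT with vehicle. Counting error is part of each and is relatively larger at the lower WT counts, so these do not compare the spread between mice alone. Exact 95% Poisson intervals, which cover counting error only, ran from 59.9 to 95.1 counts in WT vehicle mouse 1 and from 19.4 to 41.6 counts in WT vehicle mouse 2, and did not overlap. WT vehicle mouse 2 also had the lowest share of mitochondrially encoded counts, 19.5%, where the other libraries held up to 33.6%. The part of that difference in its Pde10a level was not tested.

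**Figure D2:**
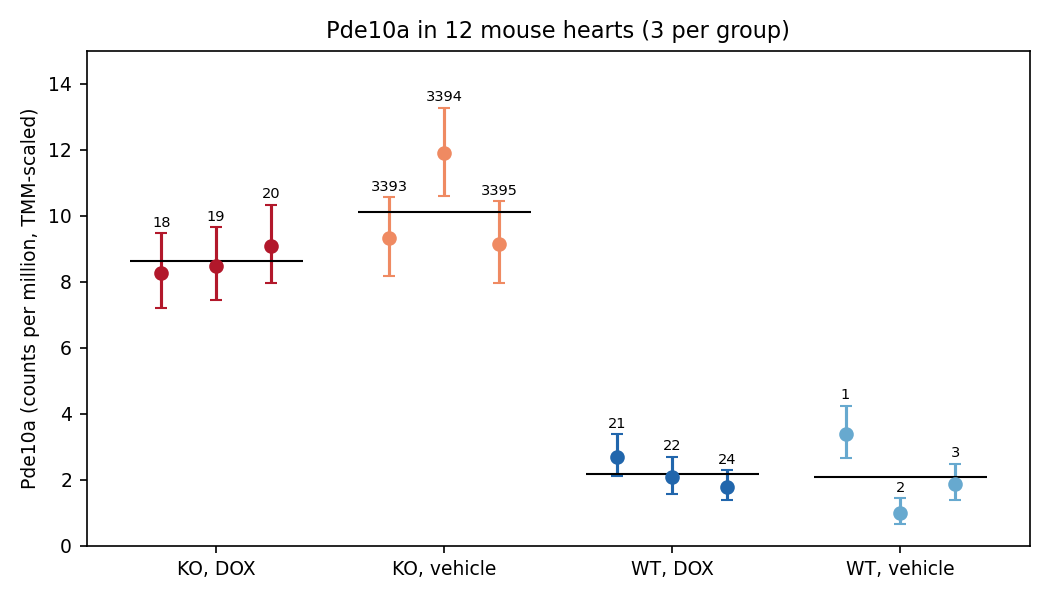
Pde10a in CPM (vertical axis, TMM-scaled) in each library, labelled by mouse number, with exact 95% Poisson intervals of the count as bars and the group mean as a line. The 6 KO libraries sit between 8.27 and 11.9 CPM and the 6 WT libraries between 1.00 and 3.38 CPM.

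Group means were 8.62 ± 0.426 CPM in KO DOX hearts and 10.1 ± 1.54 CPM in KO vehicle hearts, against 2.19 ± 0.465 CPM in WT DOX hearts and 2.08 ± 1.21 CPM in WT vehicle hearts (SD, n = 3 each). The fold between genotypes was 4.93 under vehicle, with a 95% interval of 3.06 to 7.93, and 3.95 under DOX, with an interval of 2.48 to 6.30, from edgeR's quasi-likelihood fit. Averaged over the treatments it was 4.41 (3.16 to 6.16), or log2 2.14 with a standard error of 0.22, and the adjusted p was 0.000507. Calls at an adjusted p under 0.05 were made for 2.88% of all tested genes under vehicle (1.79% higher and 1.09% lower in KO), 0.42% under DOX (0.19% and 0.23%) and 4.59% for the average (2.59% and 2%). Pde10a was among those called higher in each. Ordered by p, Pde10a ranked 26 under vehicle, 18 under DOX and 11 for the average, of 14757 genes. It was 1 of 17 genes (0.115%) called with the same sign under both treatments. The 2 comparisons share no library, but both come from 1 fit that estimates the spread over all 12 libraries. An exact two-sided permutation test of log2 CPM, with labels exchanged only within each treatment, gave p = 0.005, which is the smallest its 400 arrangements allow. Within a treatment the exact permutation test cannot go below p = 0.1, the value that both treatments gave.

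All 6 KO libraries stood above all 6 WT libraries, as held for 1.65% of tested genes, 244 in all. Taken by treatment, 16.5% of tested genes had their KO vehicle libraries all above those of WT, and 9.86% their KO DOX libraries. Pde10a had the ninth largest averaged log2 difference among those 244. The call under DOX was lost without KO DOX mouse 19 (adjusted p = 0.073) or 20 (0.0966), KO vehicle mouse veh_3393 (0.0514), or WT DOX mouse 22 (0.109) or 24 (0.0704), in edgeR fits whose log2 differences stayed between 1.85 and 2.16 with any library left out. The calls under vehicle and for the average held in all 12 of those fits.

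The titles of 8 libraries carry a suffix 1 and those of the other 4 do not, with no meaning given. Among libraries with the suffix, the KO vehicle mean was 10.5 CPM (n = 2) against 3.38 CPM in 1 WT vehicle library, 3.11-fold apart. The KO DOX mean was 8.62 CPM (n = 3) against 1.93 CPM in WT DOX hearts with the suffix (n = 2), 4.47-fold apart. Without it, 1 KO vehicle library stood at 9.31 CPM against 1.43 CPM in WT vehicle hearts (n = 2), 6.50-fold apart, and no KO DOX library lacked the suffix. The direction was thus the same in each of the 3 subsets that could be formed.

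In neither genotype did Pde10a pass the threshold for DOX against vehicle. In KO hearts each DOX library lay below each vehicle library, as was true of 8.05% of tested genes, yet the gap was narrow, from 9.09 CPM in the highest KO DOX library to 9.13 CPM in the lowest KO vehicle library. The log2 difference there was -0.23 with a 95% interval of -0.85 to 0.39 (edgeR's quasi-likelihood test, adjusted p = 0.997). In WT hearts the groups overlapped, and the log2 difference was 0.09 with an interval of -0.63 to 0.80 (edgeR, adjusted p = 0.872). The interval in WT thus takes in anything from a 0.648-fold to a 1.74-fold level with DOX. Calls for DOX were made for 0.0136% of tested genes in KO and 18.6% in WT (9.39% higher and 9.2% lower). The interaction (response to DOX in KO minus response in WT) was log2 -0.32 (interval -1.26 to 0.63, edgeR adjusted p = 0.725), and 0.21% of genes were called. In the order of group means, KO vehicle, KO DOX, WT DOX and WT vehicle, only the step from KO DOX to WT DOX was past the threshold, and the neighbours on each side of it did not differ beyond their spread.

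**Figure D3:**
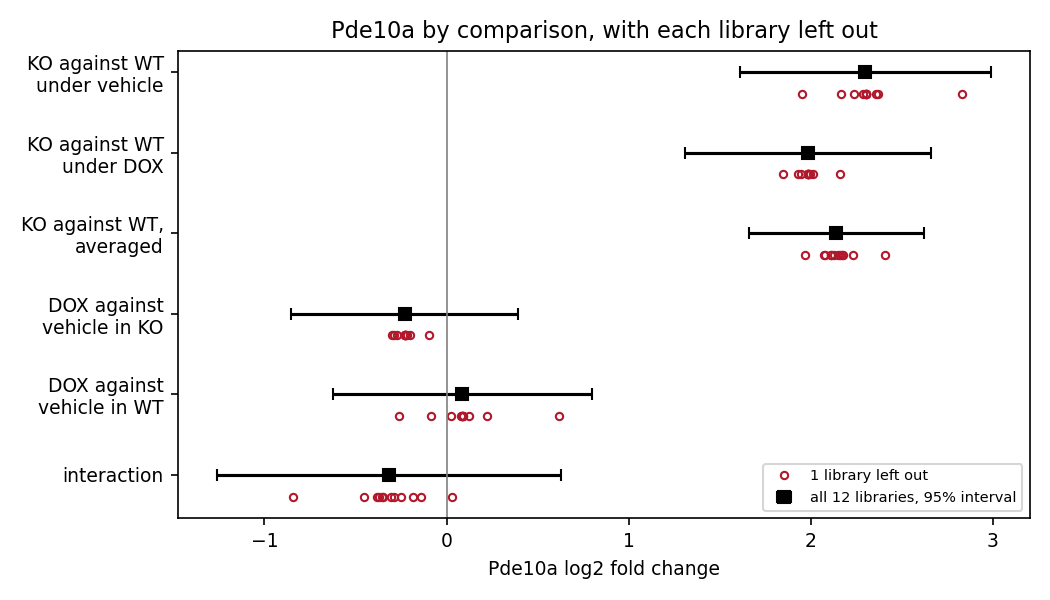
Log2 fold change of Pde10a (horizontal axis) in 6 comparisons, with black squares and 95% intervals for the fit of all 12 libraries and red circles for fits with 1 library left out. The 3 comparisons between genotypes lie near 2. The intervals for DOX against vehicle in each genotype and for the interaction span 0.

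Pde10a is embedded among few other expressed genes. Of 3 minus-strand genes annotated inside its span, Gm15425 and Gm17087 had at most 0.0427 and 0.0359 CPM in any library and Gm15426 had no count. How reads that match overlapping genes or several places were assigned is not stated in the labels. The next gene on the plus strand is 1700010I14Rik, a coding gene known by a clone name, at chr17:8988333-9011949, which begins 1.69 kb after the end of Pde10a. Its counts were 14, 10 and 11 in KO DOX hearts and 8, 15 and 9 in KO vehicle hearts, against 0, 4 and 2 in WT DOX hearts and 0, 2 and 1 in WT vehicle hearts. The groups did not overlap, and summed over genotypes the 67 KO counts against 9 WT counts gave a ratio of 8.01 with an exact 95% interval of 3.98 to 18.3 for counting error only. It was called under vehicle (edgeR adjusted p = 0.0423), not under DOX (0.0973), and for the average (0.0116). The average kept its call whichever library was left out. That under vehicle was lost without any KO DOX or KO vehicle mouse, WT DOX mouse 24, or WT vehicle mouse 2 or 3, with an adjusted p up to 0.136.

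The 10 nearest tested genes on each side were also examined. Under vehicle 0 of the 10 before Pde10a were called by edgeR, beside 2.88% of all genes. Among those after it, Map3k4, a kinase of stress signalling 3.24 Mb beyond the end of Pde10a, was higher in KO. It averaged 54.2 ± 1.06 CPM in KO vehicle hearts and 39.1 ± 4.86 CPM in WT vehicle hearts (SD, n = 3 each, edgeR adjusted p = 0.0334). Under vehicle Map3k4 lost its call without KO DOX mouse 20, any KO vehicle mouse, or WT vehicle mouse 2 or 3 (adjusted p up to 0.114). For the average a gene before Pde10a, Sft2d1, was also called and was lower in KO (log2 -0.45, edgeR adjusted p = 0.0472), a call held in 1 of the 12 fits with a library left out, and under DOX none of the 20 was called (edgeR, beside 0.42% of all genes).

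Set beside the other cyclic nucleotide phosphodiesterase genes, Pde10a was a minor transcript in both genotypes. Levels were compared as CPM per kilobase of merged exon, since the genes differ in length. Pde10a stood at 0.729 ± 0.101 in KO hearts and 0.166 ± 0.0638 in WT hearts (SD, n = 6 each), which was 13th of 24 genes in KO and 19th in WT. It made up 1.26% of the summed level of these 24 genes in KO hearts and 0.297% in WT hearts. That sum includes Pde6d, which encodes a chaperone, at 19.6% in KO and 21.25% in WT hearts. Its neighbours in that order in KO were Pde9a, a cyclic GMP enzyme, at 0.895 ± 0.261 and Pde3b at 0.5997 ± 0.199 (SD, n = 6 each). The KO libraries ran from 0.672 to 1.30 for Pde9a, from 0.644 to 0.925 for Pde10a and from 0.410 to 0.923 for Pde3b, so their ranges overlapped. The highest levels per length belonged to Pde6d, a prenyl-binding chaperone (11.4 in KO, 11.9 in WT), Pde4a (10.8 in KO, 8.70 in WT), Pde7a (7.57 in KO, 8.45 in WT), Pde3a (6.69 in KO, 7.65 in WT) and Pde8a (6.30 in KO, 4.91 in WT). Pde2a, which cyclic GMP activates, was the lowest of the tested ones at 0.0673 in KO hearts and 0.0525 in WT hearts, and the photoreceptor genes Pde6a, Pde6b, Pde6c and Pde6h were below the filter.

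**Figure D4:**
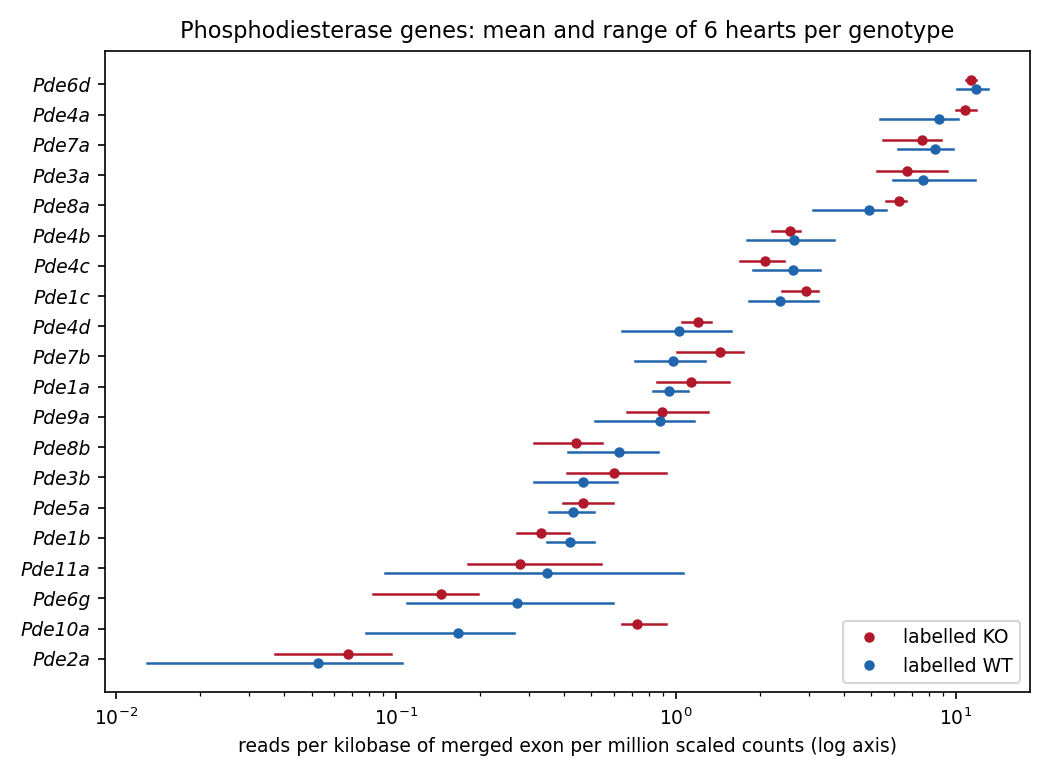
Levels of the tested phosphodiesterase genes in CPM per kilobase of merged exon (horizontal log axis), as the mean (point) and range (line) of 6 KO hearts (red) and 6 WT hearts (blue). For Pde10a the ranges of the genotypes lie apart.

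Of 23 other phosphodiesterase genes listed, 19 were tested, and under vehicle 1 was higher in KO and 0 lower (5.26%, beside 2.88% of all genes), with a median log2 of 0.09 against 0.02 over all genes. That count was 5 with no filter on low counts, 5 with DESeq2, 8 with limma-voom and 0 to 5 with 1 library left out. That gene was Pde7b, a cyclic AMP-specific enzyme, with 19.2, 17.9 and 21.6 CPM in KO vehicle hearts and 13.6, 8.91 and 9.29 CPM in WT vehicle hearts. Each KO vehicle library lay above each WT vehicle library for it, as held for 16.5% of all tested genes. The log2 difference was 0.89 (SE 0.20, edgeR adjusted p = 0.0406). The call was lost without KO DOX mouse 20, any KO vehicle mouse, or WT vehicle mouse 2 or 3 (adjusted p up to 0.149). Under DOX edgeR called 0 of the 19, beside 0.42% of all genes, with a median of 0.03. Other values under vehicle were Pde1c, a calmodulin-stimulated enzyme, at log2 0.50 (edgeR adjusted p = 0.0655), Pde4d, the PDE4 form tied to the ryanodine receptor, at 0.63 (0.0547), Pde8a at 0.52 (0.0883) and Pde8b at -0.73 (0.0992). Pde6g, with 5 to 40 counts per library, had log2 -1.33 (edgeR adjusted p = 0.0977). Of the PDE3 genes, Pde3a had log2 -0.19 under vehicle (edgeR adjusted p = 0.598) and Pde3b 0.57 (0.259). Of the PDE4 genes beside Pde4d, Pde4a had log2 0.09 (0.731), Pde4b 0.145 (0.704) and Pde4c -0.24 (0.423).

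With DOX 1 of the 19 was higher in WT hearts and 0 lower (5.26%, beside 18.6% of all genes), with a median log2 of 0.10. It was Pde4d, at 12.8, 18.9 and 15.7 CPM in WT DOX hearts and 10.9, 7.74 and 7.74 CPM in WT vehicle hearts (log2 0.85, edgeR adjusted p = 0.0134). Its call was lost without WT DOX mouse 22 (adjusted p = 0.0572) or 24 (0.0517). Pde11a, another dual-substrate enzyme, stood at 1.55, 5.53 and 1.41 CPM in WT DOX hearts and 1.38, 0.484 and 0.476 CPM in WT vehicle hearts, and missed the threshold (log2 1.87, edgeR adjusted p = 0.0538). Mouse 22 alone was high for it. In KO hearts 0 of the 19 were called for DOX by edgeR, as were 0.0136% of all genes.

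Around the phosphodiesterases stand the genes that make and read the same messengers, whose counts under vehicle are to be set beside the 2.88% of all genes called. Of 14 tested genes of cyclic AMP and cyclic GMP synthesis, 2 were higher and 1 lower in KO under vehicle (21.4%, median log2 0.06). Adcy9, an adenylyl cyclase, averaged 16.2 ± 2.29 CPM in KO vehicle hearts and 5.70 ± 3.60 CPM in WT vehicle hearts (SD, n = 3 each, log2 1.52, edgeR adjusted p = 0.0356). Adcy5, the cardiac cyclase inhibited by calcium, had log2 0.47 (adjusted p = 0.0366), and Adcy4 had log2 -0.66 (0.0146). Of 21 effectors tested, 1 was higher, the protein kinase A regulatory subunit gene Prkar2a (log2 0.52, edgeR adjusted p = 0.0432), which is 4.76%, with a median of 0.19. None of 10 A-kinase anchoring protein genes was called by edgeR (median 0.24). Of 10 substrates of protein kinases A and G, 1 was higher (10%), the ryanodine receptor gene Ryr2 (log2 0.87, edgeR adjusted p = 0.0217). Under DOX none of the 5 genes was called between genotypes by edgeR. Their log2 was then 0.11 for Adcy9, 0.24 for Adcy5, -0.07 for Adcy4, 0.12 for Prkar2a and 0.22 for Ryr2. For DOX against vehicle in WT hearts Adcy9 had log2 1.755 (edgeR adjusted p = 0.0128), Adcy5 0.32 (0.0474) and Adcy4 -0.63 (0.0101). Prkar2a had 0.42 (0.0358) and Ryr2 0.39 (0.108). Whether these DOX values hold with a library left out was not tested. Each of these 5 calls under vehicle was lost without KO vehicle mouse veh_3393, veh_3394 or veh_3395, or WT vehicle mouse 3. Without WT vehicle mouse 2 all but that of Adcy4 were lost, without KO DOX mouse 20 those of Adcy5, Adcy9 and Prkar2a, and without KO DOX mouse 18 or 19 that of Prkar2a. Of 12 fits with a library left out, the calls were thus lost in 4 for Adcy4, 5 for Ryr2, 6 each for Adcy5 and Adcy9 and 8 for Prkar2a, with adjusted p up to 0.153.

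CREB, the transcription factor that protein kinase A activates, has a set of fast target genes. Of 12 tested, 1 was lower and 0 higher in KO under vehicle (8.33%, beside 2.88% of all genes, median log2 -0.46), Egr1 (log2 -1.81, edgeR adjusted p = 0.0217). Under DOX 2 were lower and 0 higher (16.7%, beside 0.42% of all genes, median -0.70). Nr4a1, an orphan nuclear receptor, averaged 18.1 ± 2.54 CPM in KO DOX hearts and 101 ± 66.1 CPM in WT DOX hearts (SD, n = 3 each, edgeR adjusted p = 0.0186), and Nr4a3, its relative, 2.75 ± 1.28 CPM in KO DOX hearts and 24.2 ± 15.0 CPM in WT DOX hearts (adjusted p = 0.0268). Leaving out KO DOX mouse 19 or 20 ended the call of Nr4a1 (highest adjusted p 0.106), and leaving out any KO DOX mouse or WT DOX mouse 22 that of Nr4a3 (0.117). Egr1 was not called without any KO vehicle mouse or WT vehicle mouse 2 or 3 (highest adjusted p 0.0984). Between genotypes under vehicle Nr4a1 had log2 -0.53 (edgeR adjusted p = 0.372) and Nr4a3 -0.34 (0.671). Egr1 had the other sign under DOX (log2 0.34, edgeR adjusted p = 0.66). For DOX against vehicle in WT hearts Nr4a1 had log2 2.18 (edgeR adjusted p = 0.00941), Nr4a3 1.40 (0.04999) and Egr1 -1.255 (0.0263). Whether these values in WT hearts hold with a library left out was not tested. Under DOX edgeR called 0 members of each of the other 4 lists around the phosphodiesterases. With DOX against vehicle in WT hearts, edgeR called 4 of 14 synthesis genes, 7 of 21 effectors, 6 of 10 anchoring proteins, 6 of 12 CREB targets and 3 of 10 substrates, beside 18.6% of all genes. In KO hearts it called 0 in each of these lists for DOX, beside 0.0136% of all genes, and the interaction was called for 0 of their members, beside 0.21%.

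The genes whose levels ran most like that of Pde10a were sought among 11790 tested genes whose log2 CPM averaged 0 or more and whose names are not clone-type. Over the 12 libraries the highest Pearson correlations of log2 CPM were those of Tmco3 (0.975), Lrsam1 (0.968), Map3k4 (0.961), Inppl1 (0.959), Wdfy1 (0.958), Kank2 (0.955), Ttc3 (0.954) and Mindy2 (0.952). These are descriptions over 12 libraries that share a genotype split and a scaling, and 63 genes had a correlation above 0.9. Of the 8, only Map3k4 is on chromosome 17. Wdfy1, which encodes an endosomal adaptor, had the widest split of them, with 24.9 CPM in KO DOX and 25.3 CPM in KO vehicle hearts against 10.1 CPM in WT DOX and 8.98 CPM in WT vehicle hearts. Tmco3 was only mildly apart, with 23.0 and 23.5 CPM in KO DOX and KO vehicle hearts against 17.4 and 17.3 CPM in WT DOX and WT vehicle hearts. The lowest correlations were those of Eif3g (-0.941) and Cnbp (-0.937), with Rpl7a (-0.940) and Psmc3 (-0.938) between them, genes of translation, nucleic acid binding, the ribosome and the proteasome. By Spearman's rho, or on deviations from the group means, 0 of the 8 highest genes were the same, so the order of names depends on the measure.

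No list of cell type markers separated all KO from all WT hearts, as Pde10a did. The hearts held high myocyte transcripts, with a summed 59000 to 68000 CPM for 8 genes in KO and 48100 to 78400 CPM in WT hearts. Of 9 genes of striatal medium spiny neurons, where Pde10a is abundant, 5 averaged at least 1 CPM and Gpr6 was at 0, and their sum ran from 14.6 to 30.8 CPM in KO and from 17.3 to 28.7 CPM in WT hearts. The members were uneven. Of the dopamine receptor genes, Drd1 had at most 4 counts in any KO library and at most 5 in any WT library, while Drd2 ran from 0.694 to 4.25 CPM in KO and from 0.757 to 5.60 CPM in WT hearts. Penk ran from 5.25 to 9.30 CPM in KO and from 6.36 to 12.7 CPM in WT hearts. Adora2a ran from 4.11 to 7.83 CPM in KO and from 3.31 to 11.7 CPM in WT hearts, ranges that pool the treatments. Under vehicle Adora2a was called lower in KO (log2 -1.06, edgeR adjusted p = 0.0199), and under DOX it was not called (0.60, 0.176). It was called lower with DOX in WT hearts (log2 -1.34, edgeR adjusted p = 0.0086), and its interaction was called (1.66, 0.0341). Whether these calls of Adora2a hold with a library left out was not tested. Ppp1r1b stood at 9.53 CPM in KO DOX mouse 18 and 14.04 CPM in KO vehicle mouse veh_3394, against at most 0.424 CPM in the other KO libraries and 0.356 CPM in WT. The part of these genes in the Pde10a level was not tested. The 8 general neuron genes summed to between 9.29 and 13.5 CPM in KO and between 3.48 and 15.3 CPM in WT hearts, with Chat at 0. Only 3 of them, Stmn2, Dbh and Tubb3, averaged at least 1 CPM. Snap25, Syt1, Rbfox3 and Th had at most 2, 4, 3 and 2 counts in any library. Atrial markers summed to between 81.2 and 2140 CPM in KO and between 61.8 and 215 CPM in WT hearts, high in KO DOX mouse 18 and KO vehicle mouse veh_3394. Without both of those libraries the Pde10a difference was log2 2.16 under vehicle (edgeR adjusted p = 0.024) and 2.01 under DOX (0.06). Of the phosphodiesterases, pathway genes and Map3k4 called under vehicle or DOX, Egr1 (0.0235) kept its call in that fit, while Pde7b (0.0857), Map3k4 (0.141), Adcy4 (0.0711), Adcy5 (0.133), Adcy9 (0.0995), Prkar2a (0.144), Ryr2 (0.0958), Nr4a1 (0.0694) and Nr4a3 (0.0852) lost theirs, all as edgeR adjusted p. Within a treatment some sums stood apart: endothelial genes summed to 551 to 608 CPM in KO vehicle and 753 to 934 CPM in WT vehicle hearts. Neutrophil genes summed to 6.78 to 10.3 CPM in KO vehicle and 2.00 to 3.45 CPM in WT vehicle hearts, and to 3.94 to 5.55 CPM in KO DOX and 8.63 to 36.6 CPM in WT DOX hearts. Erythroid genes summed to 0.709 to 213 CPM in KO DOX and 0.144 to 0.395 CPM in WT DOX hearts. The part of these shifts in the results was not tested. In whole hearts a change in the share of a cell type and a change in RNA per cell cannot be told apart.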

How the data were processed

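Each library came as a table of gene symbols with the raw read count that the authors deposited. Subread 1.6.4, featureCounts, STAR 2.7.0f and fastp 0.20.0 are named in the submitters' processing notes. Genome build, annotation, strand setting and the handling of reads with several matches are not stated in the labels; 98.3% of symbols occur in GENCODE M21 (GRCm38), used for positions and lengths. Counts were filtered with filterByExpr, scaled with TMM factors and fitted with edgeR 4.0.16 in R 4.3.3, with 1 mean per group over 12 libraries. Quasi-likelihood F tests used Benjamini-Hochberg adjustment over 14757 genes and a threshold of 0.05. The biological coefficient of variation was 17.5% overall. Log2 CPM had a prior count of 2. The fit was tested on simulated data. Pde10a and the lists of genes were chosen with earlier results of these data known. Genes named were Pde10a, the phosphodiesterases, up to 4 called members per list, the 8 genes most and 4 least like Pde10a, and called genes among the 10 nearest on each side, of which 1 is not reported here. Library totals of 23846398 to 32921876 set the depth. P-values for genes test differences in group means, with mice grouped as labelled, against the spread within groups. That spread includes counting error and was estimated over all 4 groups. Alternatives used DESeq2 1.42.0 and limma 3.58.1.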

Additional observations from a re-analysis of the deposited data

How the results depend on the processing

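Pde10a stayed higher in KO under vehicle, under DOX and averaged in every alternative run. The call under vehicle and that of the average held in all of them. Under DOX it was lost in 5 of the 12 fits that left out a library, whose log2 values lay between 1.85 and 2.16, and without both libraries high in atrial transcripts (2.01), an alternative chosen after seeing the data. The average ran from 1.97 to 2.41 and the difference under vehicle from 1.95 to 2.83 with a library left out. The DOX effect in WT reversed without WT vehicle mouse 2 (log2 -0.26) or WT DOX mouse 21 (-0.09) and ran up to 0.62 otherwise, so its sign is not settled. The interaction ran from -0.85 to 0.0306, the last without WT vehicle mouse 2. The cause was not tested. The call of 1 other phosphodiesterase under vehicle became 5 with no filter on low counts, 5 with DESeq2, 8 with limma-voom, 0 in a fit of the 2 groups, 0 with the title suffix as covariate, and 0 without both atrial-high libraries. With 1 library left out it ran from 0 to 5. For DOX in WT 1 call became 3 with library totals alone, 5 with no filter, 3 with DESeq2, 7 with limma-voom and 0 in a fit of the 2 groups, and ran from 0 to 6 with 1 library left out. Calls over all genes under vehicle numbered 425, and 2088 with no filter, 1682 with DESeq2, 5186 with limma-voom, 222 in a fit of the 2 groups and 211 with the suffix. With 1 library left out they ran from 42 to 2670 under vehicle, 8 to 727 under DOX, 111 to 1976 for the average and 183 to 4188 for DOX in WT, so the shares of all genes set beside the counts move as much. Spearman's rho and deviations from the group means each shared 0 of the 8 genes most like Pde10a. No paired analysis was possible because mouse numbers differ between the groups. The lowest count behind a Pde10a value was 29, in WT vehicle mouse 2, whose library total was 27515055.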
